A study of Homo sapiens with 4 samples.

Results

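HSF1 and 9 heat shock chaperone genes were followed in Myla, an established line derived from mycosis fungoides (a skin lymphoma of T lymphocytes), with and without a hairpin against FOXM1. The members were the rows of the deposited gene table named HSF1, HSPA1A, HSPA1B, DNAJB1, HSPH1, HSP90AA1, HSPA8, HSP90AB1, HSPD1 and HSPE1, or 10 genes of 58735. All 10 were among the 12033 genes that passed the filter on low levels. RNA came from cells grown at 37 °C with 10% serum. One group of 2 libraries had received lentivirus carrying short hairpin RNA against FOXM1 (shFOXM1, genotype label FOXM1 knockdown) and the other 2 libraries a scrambled hairpin (shControl, genotype label WT). All 4 libraries are therefore from transduced cells of one line. Virus medium was added at 10 uL to 1 mL of culture, replaced after 24 h, and RNA was taken after 72 h more. No source says whether the knockdown libraries, whose columns are named sh1 and sh2, carried one hairpin or different ones, nor whether libraries came from separate cultures. Each p-value therefore covers library-to-library spread alone, and that spread may be technical.

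Chaperones bind unfolded proteins and help them fold, and HSF1 is the transcription factor that switches many chaperone genes on when proteins are damaged. HSP70 proteins hold and release clients in cycles that J-domain proteins start and exchange factors reset, HSP90 acts later on kinases and receptors, and HSP60 with HSP10 forms a folding chamber in mitochondria. By textbook knowledge HSPA1A, HSPA1B, DNAJB1, HSPH1 and HSP90AA1 are called inducible here, HSPA8 and HSP90AB1 constitutive, and HSPD1 and HSPE1 mitochondrial.

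HSF1 binds heat shock elements, inverted repeats of the triplet GAA. RefSeq promoter windows (GRCh38.p14; 250 bases before to 50 after a start site) were found for 9 members in 15 windows, and HSF1 is named only. The windows were searched for GAANNTTC and TTCNNGAA, each of which reads the same on both strands, and for a longer element that adds 1 further inverted triplet (GAANNTTC followed by NNGAA, or TTCNNGAA followed by NNTTC) and so contains both shorter ones. A shorter motif stood in 7 of the 9 genes, against 16.2% of all genes with a window. The longer element stood in 4 of the 9 (HSP90AA1, HSPA8, HSP90AB1 and HSPD1), against 0.608% of all genes. In the windows of HSPH1 and HSPE1 these letters were not present. One match per gene is shown in a stretch of 30 bases, so that inducible and constitutive genes can be compared at the element; each is 5′ to 3′ on the strand of the gene with the matches in capitals.
HSPA1A, chr6:31815426-31815455, plus strand: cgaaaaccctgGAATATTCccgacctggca
HSPA1B, chr6:31827622-31827651, plus strand: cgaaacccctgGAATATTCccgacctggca
DNAJB1, chr19:14518426-14518455, minus strand: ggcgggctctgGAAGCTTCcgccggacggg
HSP90AA1, chr14:102087111-102087140, minus strand: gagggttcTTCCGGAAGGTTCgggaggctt
HSPA8, chr11:123062170-123062199, minus strand: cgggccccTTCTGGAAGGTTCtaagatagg
HSP90AB1, chr6:44247823-44247852, plus strand: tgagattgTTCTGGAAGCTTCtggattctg
HSPD1, chr2:197500061-197500090, minus strand: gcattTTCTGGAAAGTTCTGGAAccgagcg

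The first capital base lies at -106 from the start site in HSPA1A, -105 in HSPA1B, -47 in DNAJB1, -88 in HSP90AA1, -55 in HSPA8 and -112 in HSP90AB1. In HSPD1 it lies at -245 from one listed start site and inside the gene as seen from the other. The HSPD1 stretch also lies upstream of the RefSeq start site of HSPE1 at 197500379, ahead of the HSPE1 window, which begins at 197500129. In the annotation behind the FPKM, HSPE1 begins at 197499994, so there the stretch lies inside both HSPE1 and HSPD1. By exact letters, both constitutive genes thus carried the longer element, as did the inducible HSP90AA1. In HSPA1A, HSPA1B and DNAJB1 only the shorter one matched exactly. Elements with changed letters were not searched for, so these genes may hold further units that the search misses. A match describes the letters and does not show that HSF1 binds there.

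HSPA1A and HSPA1B encode the stress-induced HSP70 of the cytosol from neighbouring genes. Their upstream stretches, cut where the annotated HSPA1A gene begins, are shown to compare the promoters of this pair. They lie outside both annotated genes and so do not bear on how reads were split.
HSPA1A, chr6:31815293-31815463, plus strand: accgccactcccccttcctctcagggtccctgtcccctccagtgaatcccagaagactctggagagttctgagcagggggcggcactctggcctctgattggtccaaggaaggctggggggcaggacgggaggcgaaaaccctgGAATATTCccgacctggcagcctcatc
HSPA1B, chr6:31827488-31827658, plus strand: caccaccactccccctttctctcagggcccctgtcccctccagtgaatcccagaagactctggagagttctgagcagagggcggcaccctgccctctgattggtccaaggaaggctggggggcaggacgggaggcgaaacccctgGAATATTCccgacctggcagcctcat
Aligned end to end, these stretches of 171 bases had 163 identical positions, 7 mismatches and 2 gaps (94.8% identity). Of all runs of 31 bases in HSPA1A transcripts, 73.6% also occur in HSPA1B transcripts. How reads matching both genes were assigned is not given in the sources used here, so the split between them is uncertain.

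Values are given as FPKM, fragments scaled to gene length and to library size, with replicate 1 before replicate 2. FOXM1, the targeted forkhead factor, held 26.5 and 27.6 FPKM with the scrambled hairpin and 9.27 and 5.59 FPKM with the FOXM1 hairpin (log2 fold change -1.77; limma, adjusted p = 0.173). Libraries held 14147084 to 15017728 reads. Replicates differed by more than counting noise, with a chi-square per degree of freedom of 3.93 between the controls and 36.5 between the knockdowns. Of 10 T cell markers 6 were above the filter, CD3E was at most 0.138 FPKM, LCK at most 0.0211 FPKM, and CD4 was listed at 0 throughout. Their sum was 297 and 283 FPKM in the controls and 273 and 322 FPKM in the knockdowns. Among 4 lists of other cell types, 3 of 10 B and plasma cell markers passed the filter (MZB1, BLK and CD79A), 1 of 10 monocyte markers (CSF1R), 2 of 10 fibroblast and endothelial markers (COL3A1 and COL1A1) and 3 of 10 keratinocyte and epithelial markers (KRT10, TP63 and CDH1). The fibroblast and endothelial sum was 27.1, 25.4, 48.4 and 20.4 FPKM in the controls and then the knockdowns, and in every one of these lists the groups overlapped in the sum; their part in the results was not tested. In bulk RNA, fewer cells of a kind and less RNA per cell cannot be told apart.

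At an adjusted p under 0.05, limma called 0 of the 10 members and 0% of the 12033 genes. At an unadjusted p under 0.05 there were 2 members higher with the FOXM1 hairpin (HSPA1A and HSPA1B), where 8.82% of all genes were, and 2 lower (HSPD1 and HSPE1), where 8.99% were; in either direction the background was 17.8%. The groups did not overlap for 8 of 10 members, against 53.2% of all genes. Of these members 2 were higher, against a background of 27.3%, and 6 lower, against 25.9%. By the sign of the mean 3 members were higher and 7 lower, with a median log2 fold change of -0.18 beside -0.00075 over all genes tested. That median was -0.075 for knockdown library 1 and -0.22 for knockdown library 2, each set against the control mean, and -0.077 after quantile normalization. With no filter on low values HSPA1A, HSPD1 and HSPE1 passed limma's test (adjusted p = 0.0491, 0.0136 and 0.0243), as did 2.38% of all rows, in a fit whose variance estimate limma reported as unreliable. Fits without knockdown library 1 or 2 take their spread from the controls alone and called 25.8% and 5.29% of all genes, so a member that passes there is read against those shares.

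**Figure D1:**
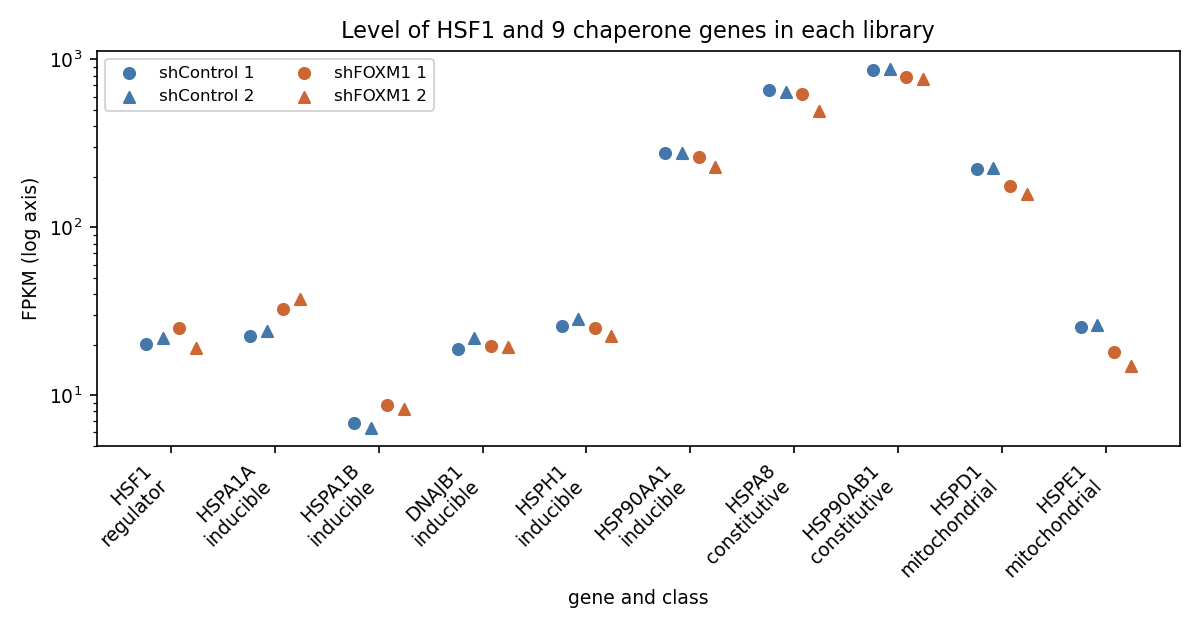
FPKM on a log axis for HSF1 and the 9 chaperone genes, with 1 point per library (blue shControl, orange shFOXM1; circle replicate 1, triangle replicate 2). HSP90AB1 and HSPA8 stand highest and HSPA1B lowest; the orange points of HSPA1A lie above its blue points and those of HSPD1 and HSPE1 below theirs.

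HSF1 (ENSG00000185122; chromosome 8, 144291591 to 144314722, plus strand, GRCh38 as for all genes here), the regulator, held 20.3 and 21.8 FPKM in the controls and 25 and 19.1 FPKM in the knockdowns, from 1527, 1705, 1963 and 1541 reads. One knockdown library lay above both controls and the other below both. Means were 21 ± 1.06 and 22 ± 4.2 FPKM (SD, n = 2 each), with a log2 fold change of 0.053 (SE 0.16, 95% interval -0.36 to 0.47; limma, adjusted p = 0.888). The sign rested on single libraries: the value was -0.13 when knockdown library 1 was left out and 0.24 when library 2 was.

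HSPA1A (ENSG00000204389; chromosome 6, 31815464 to 31817946, plus strand) stood higher with the FOXM1 hairpin. It held 22.6 and 24.1 FPKM in the controls and 32.5 and 37.2 FPKM in the knockdowns, from 796, 882, 1193 and 1408 reads. Both knockdown libraries lay above both controls, and the means of 23.3 ± 1.05 and 34.8 ± 3.36 FPKM (SD, n = 2 each) differed by 49.3% of the control mean. On the log2 scale the fitted change was 0.56 (SE 0.12, 95% interval 0.24 to 0.87; limma, unadjusted p = 0.00638, adjusted p = 0.184); without knockdown library 1 it was 0.65 (limma, adjusted p = 0.0156) and without library 2 0.46 (limma, adjusted p = 0.0565).

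HSPA1B (ENSG00000204388; chromosome 6, 31827735 to 31830255, plus strand) showed the same direction at a lower level, with 6.85 and 6.37 FPKM in the controls and 8.74 and 8.23 FPKM in the knockdowns. The groups again did not overlap, and the log2 fold change was 0.32 (SE 0.12, 95% interval 0.015 to 0.62; limma, unadjusted p = 0.043, adjusted p = 0.265). Summed, which removes the question of how their shared reads were split, HSPA1A and HSPA1B held 29.4 and 30.4 FPKM in the controls and 41.2 and 45.4 FPKM in the knockdowns. These sums rest on 1041, 1119, 1519 and 1724 reads, and the ratio of means was 1.45. Reads that matched both genes and were dropped would be missing from the sum as well.

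DNAJB1 (ENSG00000132002; chromosome 19, 14514770 to 14529770, minus strand), the J-domain partner of inducible HSP70, showed no such difference. It held 18.8 and 21.8 FPKM in the controls, and both knockdown values, 19.7 and 19.4 FPKM, lay between them. The log2 fold change was -0.046 (SE 0.12, 95% interval -0.36 to 0.27; limma, adjusted p = 0.87), and it was 0.057 without control library 2. DNAJB1 shares 211 exon bases with TECR on the opposite strand, 5.75% of its own. With no strand setting known, reads there cannot be told apart.

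HSPH1 (ENSG00000120694; chromosome 13, 31134974 to 31162388, minus strand), an HSP110 protein that resets HSP70, held 26 and 28.4 FPKM in the controls and 25.3 and 22.7 FPKM in the knockdowns. Knockdown library 1 lay below the lower control by less than the controls differed from each other. The log2 fold change was -0.18 (SE 0.12, 95% interval -0.48 to 0.13; limma, adjusted p = 0.48), and -0.10 without knockdown library 2.

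HSP90AA1 (ENSG00000080824; chromosome 14, 102080738 to 102139699, minus strand), the inducible HSP90, held 278 and 277 FPKM in the controls and 262 and 228 FPKM in the knockdowns. Both knockdown libraries were lower, library 2 more so. The fit gave a log2 fold change of -0.18 (SE 0.11, 95% interval -0.47 to 0.10; limma, adjusted p = 0.428). It was -0.10 after quantile normalization; without knockdown library 1 it was -0.28 (limma, adjusted p = 0.025) and without library 2 -0.085 (limma, adjusted p = 0.321).

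HSPA8 (ENSG00000109971; chromosome 11, 123057489 to 123063230, minus strand), the HSP70 that cells make at all times, was lower with the FOXM1 hairpin, mainly in 1 library. Its level was 654 and 640.2 FPKM in the controls and 618 and 491 FPKM in the knockdowns. Set against the control mean, the log2 difference was -0.066 in knockdown library 1 and -0.40 in library 2. The fitted log2 fold change was -0.23 (SE 0.14, 95% interval -0.59 to 0.12; limma, adjusted p = 0.426) and -0.056 after quantile normalization. Without knockdown library 1 it was -0.40 (limma, adjusted p = 0.0138) and without library 2 -0.066 (limma, adjusted p = 0.38).

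HSP90AB1 (ENSG00000096384; chromosome 6, 44246166 to 44253888, plus strand), the constitutive HSP90, was lower by a like amount in both libraries. It held 868 and 880.4 FPKM in the controls and 782 and 764 FPKM in the knockdowns, with means of 874 ± 8.9 and 773 ± 12.2 FPKM (SD, n = 2 each). The log2 fold change was -0.18 (SE 0.085, 95% interval -0.40 to 0.044; limma, adjusted p = 0.353), and -0.099 after quantile normalization; without knockdown library 1 it was -0.19 (limma, adjusted p = 0.0361) and without library 2 -0.16 (limma, adjusted p = 0.0943).

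The mitochondrial pair had the lowest log2 fold changes of the members. HSPD1 (ENSG00000144381; chromosome 2, 197486581 to 197516737, minus strand), which forms the HSP60 chamber, held 221 and 225 FPKM in the controls and 175 and 158 FPKM in the knockdowns. Both knockdown libraries were below both controls, at 167 ± 12.1 against 223 ± 3.0 FPKM (SD, n = 2 each). The log2 fold change was -0.42 (SE 0.10, 95% interval -0.69 to -0.15; limma, unadjusted p = 0.00989, adjusted p = 0.191). Leaving out knockdown library 1 or 2 gave -0.49 and -0.35, with adjusted limma p-values of 0.0135 and 0.0479.

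HSPE1 (ENSG00000115541; chromosome 2, 197499994 to 197503457, plus strand), the HSP10 lid of that chamber, held 25.6 and 26.3 FPKM in the controls and 18 and 15 FPKM in the knockdowns, from 718, 766, 527 and 452 reads. The groups did not overlap, at 25.9 ± 0.476 and 16.5 ± 2.13 FPKM (SD, n = 2 each). Its log2 fold change was -0.63 (SE 0.13, 95% interval -0.96 to -0.29; limma, unadjusted p = 0.00528, adjusted p = 0.183). Leaving out knockdown library 1 or 2 gave -0.75 and -0.50, with adjusted limma p-values of 0.0132 and 0.0479.

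HSPD1 and HSPE1 stand head to head on chromosome 2. Their outermost RefSeq start sites, 197500274 for HSPD1 on the minus strand and 197500379 for HSPE1 on the plus strand, have 104 bases between them. The genes share 281 exon bases on opposite strands, 14.2% of those of HSPE1 and 6.62% of those of HSPD1, and reads there cannot be told apart without strand. HSPE1 has 26 pseudogene rows, with 7 to 19 reads per library in all, and HSPD1 has 17, with 122 to 189. The length behind the FPKM of HSPE1 is 1977 bases, the sum of all its annotated exons, while its coding transcripts measure 478 to 950 bases, so its level per length depends on that choice.

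**Figure D2:**
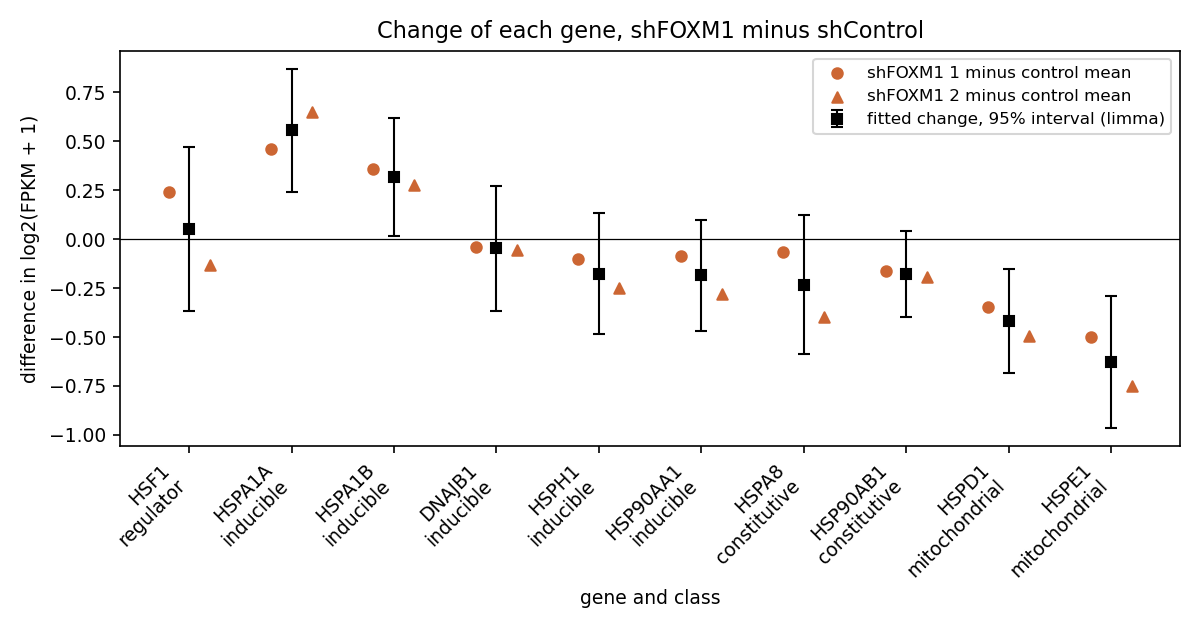
Change of each member in log2(FPKM + 1), shFOXM1 minus shControl. Squares are the fitted change with its 95% interval from limma, and orange points are shFOXM1 1 (circle) and shFOXM1 2 (triangle) minus the control mean; before adjustment for the number of genes the intervals of HSPA1A and HSPA1B lie above 0 and those of HSPD1 and HSPE1 below it.

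In the controls the members ranked HSP90AB1, HSPA8, HSP90AA1, HSPD1, HSPH1, HSPE1, HSPA1A, HSF1, DNAJB1 and HSPA1B by FPKM. The levels of HSP90AB1, HSPA8, HSP90AA1 and HSPD1 were apart from their neighbours over all 4 libraries, as was that of HSPA1B. HSPH1 overlapped HSPE1 and HSF1 overlapped DNAJB1 within the controls. HSPA1A stood below HSPE1 in both controls and above it in both knockdowns. By mean level HSP90AB1 ranked 26 and HSPA8 36 among all genes tested. These orders, and the crossing of HSPA1A and HSPE1, depend on the joined exon lengths behind FPKM. HSPA8 had 45041 and 45800 control reads over 4849 bases, against 2463 bases in its longest coding transcript. HSP90AB1 had 36702 and 38706 over 2980 bases, against 2674. For HSPE1 and HSPA1A these lengths were 1977 and 2483 bases, against 950 and 2483. An order by coding transcript length was not computed. Together the 9 chaperone genes took 0.859% and 0.857% of reads in the controls and 0.775% and 0.719% in the knockdowns, with both knockdown shares lower. Most of these reads came from HSPA8, HSP90AB1, HSP90AA1 and HSPD1 (45041, 36702, 20678 and 13319 in control library 1). HSPA1A plus HSPA1B, with 1041 reads in that library, were higher in the knockdowns and weigh little in the sum.

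Inducible and constitutive genes were contrasted by ratios of FPKM within a library, which do not depend on how libraries were scaled. With 2 libraries against 2, the exact two-sided permutation test cannot go below p = 0.333, so none of the 6 ratios could pass 0.05, raw or adjusted. HSPA1A plus HSPA1B over HSPA8 was 0.045 and 0.0476 in the controls and 0.0666 and 0.0926 in the knockdowns. Both knockdown ratios were higher, by 0.76 on the log2 scale or 1.7-fold (exact permutation p = 0.333, n = 2 each). The log2 difference was 0.53 to 1.00 with single libraries left out. Part of it came from the lower HSPA8, since the ratio of means of the pair itself was 1.45. Against the control mean, HSPA8 differed on the log2 scale by -0.066 in knockdown library 1 and -0.40 in library 2. As a share of FPKM of these 3 HSP70 genes, the inducible pair made up 4.3% and 4.54% in the controls and 6.25% and 8.48% in the knockdowns. The size of this share, and of each ratio, depends on the gene lengths behind FPKM.

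The other inducible genes were not separated from their constitutive partners. DNAJB1 over HSPA8 was 0.0287 and 0.0341 in the controls and 0.0318 and 0.0396 in the knockdowns. HSPH1 over HSPA8 was 0.0397 and 0.0443 and then 0.0409 and 0.0462. The groups overlapped in both ratios. HSP90AA1 over HSP90AB1 was 0.32 and 0.315 in the controls and 0.335 and 0.298 in the knockdowns, which lay on either side of the controls. HSPE1 over HSPD1 was 0.116 and 0.117 in the controls and 0.103 and 0.0948 in the knockdowns, lower in both (exact permutation p = 0.333, n = 2 each). HSPA1A over HSPA1B was 3.3 and 3.78 in the controls and 3.72 and 4.52 in the knockdowns, with overlap.

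**Figure D3:**
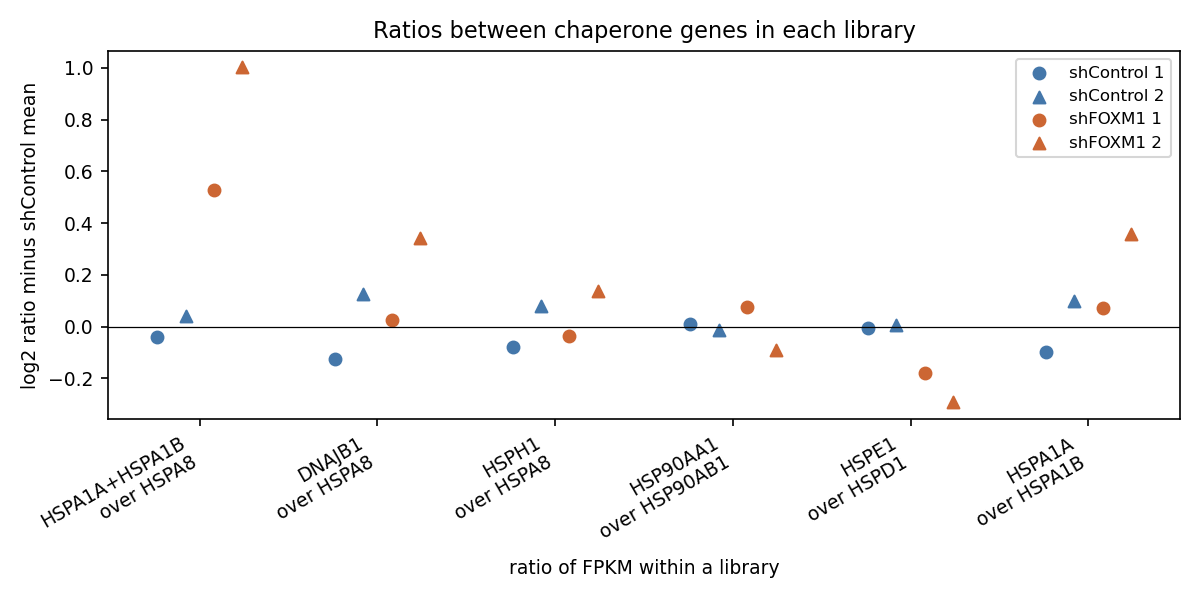
Log2 ratios of FPKM within each library, drawn as the difference from the mean of the shControl libraries, with 1 point per library. HSPA1A plus HSPA1B over HSPA8 is higher in both shFOXM1 libraries, HSPE1 over HSPD1 is lower in both, and the groups overlap in the other ratios.

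Other genes of the chaperone system and of stress responses were read from 11 lists by role, the last being the integrated stress response. Over their 126 tested genes, of 148 listed, 62 had a higher and 64 a lower mean with the FOXM1 hairpin, the median log2 fold change was -0.0028, and limma called 0 in either direction. At an unadjusted limma p under 0.05 there were 10 higher and 6 lower, or 7.94% and 4.76%, beside 8.82% and 8.99% of all genes. The integrated stress response list gave 11 of the tested genes, and 1 of the 10 higher and 2 of the 6 lower. The groups did not overlap for 32 higher and 29 lower genes, or 25.4% and 23%, beside 27.3% and 25.9%. All 4 shares were below those of all genes. Medians of the HSF, HSP70, exchange factor, TRiC and mitochondrial lists changed sign without knockdown library 2, those of the HSF list and the other HSF1 targets without control library 1, and that of the HSP90 cochaperones without control library 2.

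Of 16 HSF factors and HSF1 regulators 11 were tested, 6 higher and 5 lower by mean (median 0.037). IER5, which activates HSF1, held 34.4 and 37.1 FPKM in the controls and 35.1 and 38.8 FPKM in the knockdowns. DAXX, a nuclear protein that binds HSF1, held 29.9 and 28.1 and then 30.7 and 28.8 FPKM. Both overlapped between the groups. Among 22 other stress-induced HSF1 targets 18 were tested, 10 higher and 8 lower (median 0.027). DNAJA1, a J-domain partner of HSPA8, held 136 and 148 and then 137 and 149.8 FPKM, and the polyubiquitin gene UBB 119 and 134 and then 125 and 147 FPKM, both with overlap. HSPA6, an HSP70 gene nearly silent without stress, was at most 0.327 FPKM and was not tested.

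Of the HSP70 and HSP110 genes outside the members 8 rows were tested, 3 higher and 5 lower (median -0.071). HSPA5, the HSP70 of the endoplasmic reticulum, held 149 and 151 FPKM in the controls and 183 and 188 FPKM in the knockdowns (log2 fold change 0.31; limma, adjusted p = 0.225). HYOU1, its HSP110 partner, held 82.5 and 86.9 and then 125 and 132 FPKM (0.60; limma, adjusted p = 0.176). Neither overlapped between the groups, and both lay on the same side as HSPA1A. The 16 genes of the endoplasmic reticulum list, which holds both, were 8 higher and 8 lower (median 0.015). CANX and CALR, chaperones of glycoproteins, held 229.9 and 229 and then 228 and 255 FPKM, and 185 and 190.1 and then 215 and 203 FPKM.

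The 16 mitochondrial chaperones and proteases outside the members were 6 higher and 10 lower by mean (median -0.079). HSPA9, the mitochondrial HSP70, held 66.2 and 67 FPKM in the controls and 63.5 and 56.1 FPKM in the knockdowns. TRAP1, the mitochondrial HSP90, held 54.3 and 51.1 and then 50.3 and 36.4 FPKM, and LONP1, a matrix protease, 55.2 and 56 and then 60.4 and 49.6 FPKM. HSPA9 and TRAP1 did not overlap and were lower, while LONP1 overlapped. In the whole list the groups did not overlap for 4 higher and 3 lower genes, or 25% and 18.8%, beside 27.3% and 25.9% of all genes. At an unadjusted limma p under 0.05 there was 1 higher gene (HSCB, an iron-sulphur cluster cochaperone, named after its value was seen) and 0 lower. These were 6.25% and 0%, beside 8.82% and 8.99% of all genes.

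The J-domain proteins listed as cytosolic were 14 higher and 7 lower of 21 tested (median 0.054). Log2 fold changes were 0.054 for DNAJC8 and 0.053 for DNAJC5. Where in the cell each of these proteins acts was not checked. The exchange factors and BAG proteins were 4 higher and 6 lower of 10 (median -0.045). BAG3, a stress-induced partner of HSP70, held 19.5 and 21.6 FPKM in the controls and 25.6 and 24.1 FPKM in the knockdowns, BAG6 22 and 24 and then 24.5 and 31.3 FPKM, and HSPBP1 21.3 and 23.1 and then 21 and 28.4 FPKM. BAG3 and BAG6 did not overlap and HSPBP1 did.

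The HSP90 cochaperones were 10 higher and 7 lower of 17 tested (median 0.010). CDC37, which brings kinases to HSP90, held 104 and 109 FPKM in the controls and 132 and 127 FPKM in the knockdowns (0.29; limma, adjusted p = 0.246), and FKBP8 173 and 164 and then 185 and 221 FPKM. PTGES3, the cochaperone p23, lay on the other side, at 176 and 174 and then 153 and 146 FPKM, as did both HSP90 genes. Of 10 genes listed as small heat shock proteins 2 were tested. HSPB1 held 94.9 and 101 and then 106 and 73.1 FPKM (log2 fold change -0.15). HSPB11 held 7.01 and 7.23 and then 6.01 and 4.3 FPKM (-0.41). That HSPB11 acts as a small heat shock protein was not checked, and the list median of -0.28 rests on these 2 genes.

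The subunits of the TRiC chaperonin and of prefoldin, which help to fold actin and tubulin, were 6 higher and 8 lower of 14 (median -0.035). CCT4 held 185 and 185 FPKM in the controls and 190.2 and 182 FPKM in the knockdowns, and CCT3 140.3 and 139 and then 148 and 128 FPKM, with overlap in both. CCT7, a subunit of the same ring, held 173 and 172 and then 126 and 129 FPKM with no overlap (-0.43; limma, unadjusted p = 0.00569, adjusted p = 0.183).

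**Figure D4:**
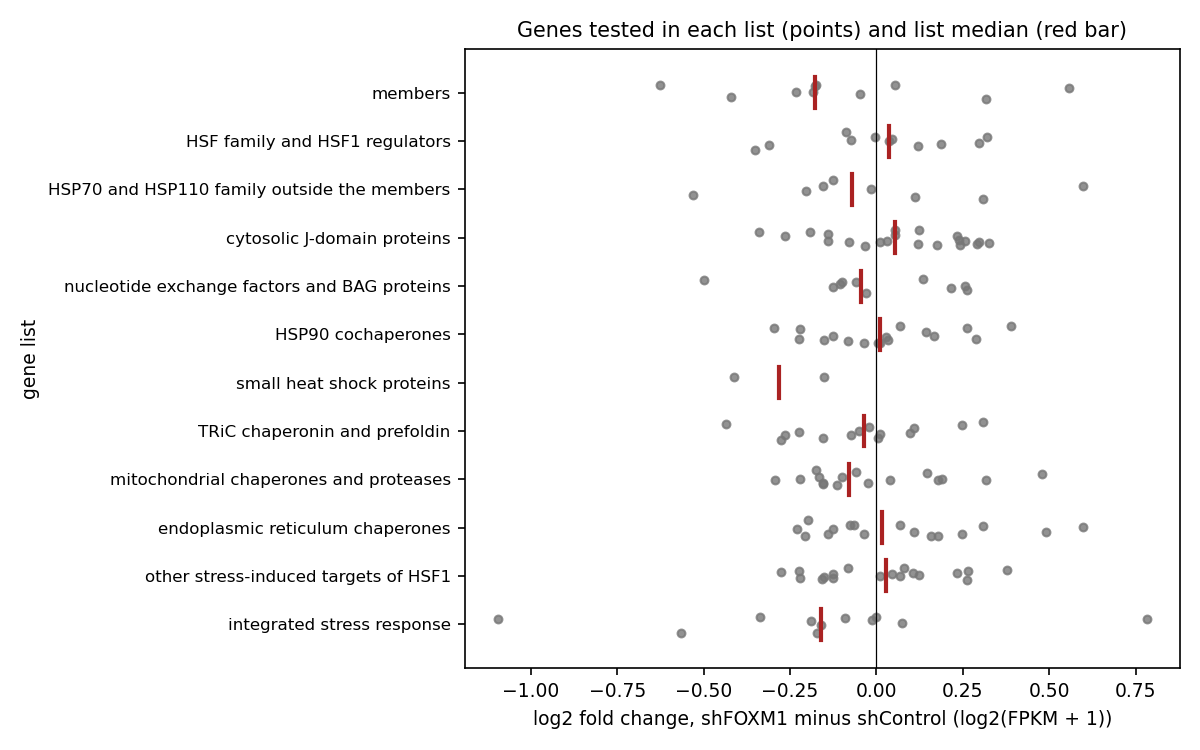
Log2 fold change of every tested gene among the members and in each list of other chaperone or stress genes, with 1 grey point per gene and the list median as a red bar. List medians lie between -0.28 (small heat shock proteins, 2 genes) and 0.054, and that of the members is -0.18.

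The genes most like HSPA8 and DNAJB1 over the 4 libraries were taken by the smallest distance between centred log2(FPKM + 1) values, among 4712 other genes with a mean of at least 10 FPKM. For HSPA8 they were DKC1, SOD1, KIF5B, PROSER1 and MFSD14B, at distances of 0.0165 to 0.0279, each lowest in knockdown library 2. For DNAJB1 they were EIF5AP4, GRWD1, RANGAP1, MT-ATP8 and SH3BGRL3, at 0.0268 to 0.0499, each highest in control library 2. With 4 libraries many genes share a pattern, and the distances are a description.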

How the data were processed

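The authors deposited 1 table of FPKM for 58735 genes with gene lengths, per the file headers. The sources used here name no aligner, counter or strand setting. Mouse builds (GRCm38, mm10) stand in the submitters' processing notes, yet all 58735 coordinates equal those of human GENCODE 29 (GRCh38) and all lengths its joined exons. Columns sh1 and sh2 were read as shFOXM1 1 and 2; 0 columns belonged to other samples. Multiplied by length and divided by what 1 read is worth in its library, 100% of values came out as whole reads, to within 0.001 read.

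Genes reaching 1 FPKM in 2 or more libraries were fitted on log2(FPKM + 1), which understates changes of low genes, by limma 3.58.1 in R 4.3.3 (eBayes, trend; two-sided; Benjamini-Hochberg, threshold 0.05). The fit was tested on simulated data in which both groups had equal variance. That check does not cover the unequal replicate spread seen here. Alternatives covered pseudocount, filter, scaling, voom on recovered reads, variance model, replicate block and left-out libraries. Named genes are the members, FOXM1 and the 3 most abundant tested genes per list, of which 1 is not reported here; HSPA6, PPP1R15A, TECR and the markers were named after their values were seen. Members and lists were chosen with earlier results of these data known.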

Additional observations from a re-analysis of the deposited data

How the results depend on the processing

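Of 160 member values over 16 alternatives, 147 kept direction and side of the threshold, 11 newly passed it and 2 turned: HSF1 was -0.13 without shFOXM1 1, and DNAJB1 0.057 without shControl 2. With no filter on low values, as planned, limma gave 680 genes higher and 717 lower, and HSPA1A (0.56, adjusted p = 0.0491), HSPD1 (-0.42, 0.0136) and HSPE1 (-0.63, 0.0243) passed. In that fit 56.2% of genes had a residual variance of 0, and limma warned that its variance estimate is unreliable. A filter of at least 1 read, added after that outcome was seen, called 0 genes. Voom with library weights, also added later, called 22 higher and 9 lower, no member among them. Single libraries left out gave from 0 to 1360 calls on the higher side and from 0 to 1744 on the lower; the remaining single library is then assumed to vary like the other group. Those fits ranged over -0.13 to 0.24 for HSF1, 0.46 to 0.65 for HSPA1A, -0.15 to 0.057 for DNAJB1, -0.28 to -0.085 for HSP90AA1, -0.40 to -0.066 for HSPA8, -0.19 to -0.16 for HSP90AB1, -0.49 to -0.35 for HSPD1 and -0.75 to -0.50 for HSPE1, and over -0.22 to -0.075 for the members' median, which was -0.077 after quantile normalization; the cause was not tested. All other fits over the whole table called 0 genes. The replicate block also called 0 genes and changed no member's call (HSPE1 -0.63, adjusted p = 0.216); deviations of same-numbered libraries correlated at 0.0421. Every member rests on at least 237 reads per library. Protein identity was not computed.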

Other observations

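Genes of the integrated stress response, which cells switch on when translation initiation is curbed, were 2 higher and 9 lower by mean among 11 tested of 12, and their median was -0.16 on the log2 scale. Without shFOXM1 2 that median was -0.0010, and without shControl 2 it was -0.077. Limma called 0 of them over all genes, and its unadjusted p was under 0.05 for 1 higher and 2 lower genes (9.09% and 18.2%), beside 8.82% and 8.99% of all genes tested. ATF4, its central transcription factor, held 277 and 282 FPKM in the controls and 280.4 and 246 FPKM in the knockdowns, and ATF5 107 and 113 and then 82.2 and 116 FPKM, with overlap in both. DDIT4, an inhibitor of mTOR signalling, held 149.5 and 115 FPKM in the controls and 77.7 and 47.7 FPKM in the knockdowns, with no overlap (-1.10; limma, adjusted p = 0.191). PPP1R15A, which restores translation after stress, lay on the other side, at 5.95 and 6.05 and then 8.58 and 14.1 FPKM (0.78; limma, adjusted p = 0.226).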
